A study of Mus musculus with 24 samples.

Results

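The genes described here are the subunits and dedicated regulators of the proteasome, taken by their symbols. A protein-coding gene was a member when its mouse symbol, in GENCODE M21, was Psm followed by a letter from a to g and a number, and the immunoproteasome subunits Psmb8, Psmb9 and Psmb10 were left out by the rule. The annotation held 48 such symbols, of which 46 were listed in the count table and 43 remained as members, out of 14427 genes in the table. Psma8 and Psmb11, which belong to testis and thymus forms of the particle, were the 2 matching symbols that the table did not list. By role the members comprised 7 alpha ring and 7 beta ring subunits of the core particle, 6 ATPases and 3 other subunits of the base, 8 subunits of the lid, 3 chaperones of base assembly (Psmd5, Psmd9 and Psmd10), 4 activators (Psme1 to Psme4), the regulator Psmf1 and 4 chaperones of core assembly (Psmg1 to Psmg4). The 31 genes of the core particle and of the base and lid are called 26S subunits below.

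RNA-seq of poly(A) RNA was available for 24 libraries from 8 lines of mouse cortical astrocytes, a male and a female line for p53 KO and for each of the mutations p53 R172H, Y202C and Y217C. Each line had 3 replicates. The study asked whether the same p53 missense mutations act differently in male and female cells. Cells came from postnatal day 1 pups of C57BL/6 background that carried 1 deleted and 1 floxed Trp53 allele, and cells from at least 3 pups were pooled by sex. Mutant lines overexpressed Trp53 R172H, Y202C or Y217C from a retrovirus that also carries GFP, were sorted for GFP and then received Cre, whereas KO lines received Cre without the GFP sort. In every line, therefore, the deleted allele and the Cre-deleted floxed allele were shared, and the mutants added virally driven p53 to that background. The overexpression, the retroviral transduction and the sort cannot be told apart in a comparison of a mutant with KO. Each line came from 1 pooled male or 1 pooled female culture used at passages 10 to 15, so the spread between the 3 replicates of a line is not a spread between animals, and a difference between a male and a female line cannot be told apart from a difference between those cultures.

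The 26S proteasome is the protease that degrades ubiquitin-tagged proteins, p53 among them. Its core particle is a barrel of stacked rings in which outer alpha rings gate the channel and inner beta rings hold the catalytic sites. The regulatory particle caps the barrel, with a lid that removes ubiquitin chains and a base whose ATPases unfold the substrate. Activators such as PA28, encoded by Psme1 and Psme2, can replace that cap, and together with the immunoproteasome subunits they are known targets of interferon signalling. Dedicated chaperones assemble the core and the base and are not part of the finished particle.

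Library totals ranged from 52787288 to 136503809 counts, and the 43 members made up between 0.3996% and 0.531% of the counts of a library. The lowest count of any member in any library was 229, so no member was limited by depth. Values below are CPM, the share of a library's counts scaled to a fixed total, after TMM scaling, and ± marks the SD over 3 replicates unless SE is written. Trp53 was at 50.9 ± 2.75 CPM in male KO and 48.9 ± 2.72 CPM in female KO, and ranged from 593 ± 18.0 CPM in female Y202C to 3709 ± 162 CPM in female Y217C among the mutant lines, so Trp53 RNA was above KO in every mutant line and its amount differed between them. The astrocyte label was unevenly borne out by the RNA of its markers. The study assessed astrocyte purity by GFAP immunofluorescence. Over line means, Gfap lay between 0.048 and 6.93 CPM and Aqp4 between 0 (female KO and male R172H) and 8.06 CPM. S100b was at or below 1.28 CPM, Slc1a2 at or below 7.82 CPM and Aldoc at or below 5.77 CPM. Aldh1l1 lay between 0.0546 and 56.6 CPM and Slc1a3 between 3.14 and 281 CPM. Glul lay between 25.4 and 65.8 CPM and Nfia between 28.3 and 125 CPM. Sox9 lay between 80.0 and 183 CPM and Gja1 between 81.0 and 221 CPM. The fibroblast and pericyte markers Col1a1, Col3a1 and Pdgfrb lay between 3361 and 21776, between 765 and 6690 and between 193 and 786 CPM. The other 2 markers of that list, Dcn and Lum, were low, at 0.907 to 15.4 CPM and 0.0704 to 0.675 CPM over 7 lines, and reached 105 and 18.2 CPM in female R172H. The part of cell identity in the results below was not tested.

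The promoter windows of the genes on which the results turn are printed first. RefSeq windows on GRCm38.p6, from 250 bases before to 50 bases after a start site, were found for 36 of the 43 members, and Psmb1, Psmb2, Psmb7, Psmc3, Psmd3, Psmd7 and Psmg2 had none. Windows are shown 5′ to 3′ on the strand of the gene, in lower case. Capitals mark matches, on either strand, to an antioxidant response element core (TGACNNNGC), the motif through which NRF factors bind proteasome genes, or to an interferon-stimulated response element core (GAAA, any 2 bases, GAAA). Psme1 and Psme2 are shown because they were the members with the widest ranges, Psmd8 as the 26S subunit with the widest range, Psmb5 as the catalytic subunit that varied most, and Psmg4 as the core assembly chaperone that varied most.

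Psme1 (chr14:55578244-55578543, + strand): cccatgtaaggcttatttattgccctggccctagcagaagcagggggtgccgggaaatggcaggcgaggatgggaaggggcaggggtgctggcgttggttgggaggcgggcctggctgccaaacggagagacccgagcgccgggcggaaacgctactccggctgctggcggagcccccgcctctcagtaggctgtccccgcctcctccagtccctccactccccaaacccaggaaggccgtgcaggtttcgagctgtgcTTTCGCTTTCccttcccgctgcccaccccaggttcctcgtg

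Psme2 (chr14:55591052-55591351, - strand): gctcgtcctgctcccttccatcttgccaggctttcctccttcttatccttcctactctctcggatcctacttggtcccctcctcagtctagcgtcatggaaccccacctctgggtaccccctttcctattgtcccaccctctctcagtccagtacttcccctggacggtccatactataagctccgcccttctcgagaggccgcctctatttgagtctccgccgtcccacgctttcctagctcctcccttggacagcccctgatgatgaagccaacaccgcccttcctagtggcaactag

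Psmd8 (chr7:29180624-29180923, - strand): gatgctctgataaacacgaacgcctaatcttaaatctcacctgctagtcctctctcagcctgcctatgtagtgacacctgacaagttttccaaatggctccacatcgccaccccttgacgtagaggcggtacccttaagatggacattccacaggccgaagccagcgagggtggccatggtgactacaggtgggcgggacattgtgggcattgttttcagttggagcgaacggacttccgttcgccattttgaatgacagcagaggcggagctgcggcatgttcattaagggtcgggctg

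Psmb5 (chr14:54617946-54618245, - strand): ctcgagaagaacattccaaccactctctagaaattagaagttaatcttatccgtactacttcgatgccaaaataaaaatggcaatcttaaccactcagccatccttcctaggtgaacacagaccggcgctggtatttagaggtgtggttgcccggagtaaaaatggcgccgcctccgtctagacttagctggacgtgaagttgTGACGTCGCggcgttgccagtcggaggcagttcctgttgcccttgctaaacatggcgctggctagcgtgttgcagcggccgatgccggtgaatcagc

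Psmg4 (chr13:34162714-34163013, + strand): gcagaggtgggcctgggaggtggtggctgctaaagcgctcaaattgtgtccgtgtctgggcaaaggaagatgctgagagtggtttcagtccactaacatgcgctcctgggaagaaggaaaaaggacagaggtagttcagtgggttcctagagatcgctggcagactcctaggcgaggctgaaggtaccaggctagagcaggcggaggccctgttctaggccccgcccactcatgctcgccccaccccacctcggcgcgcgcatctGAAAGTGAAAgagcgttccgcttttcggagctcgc

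The Psme1 window held an interferon element core starting 10 bases after the start site, Psmg4 held one 16 bases after it, and Psmb5 held an antioxidant core 47 bases before it. No match to either motif was found in the Psme2 or Psmd8 windows, which says only that these letters are not there. Among the 36 members with a window, the antioxidant core was found in 6 (16.7%, against 14.0% of 27025 genes with a window), in Psmb5, Psmb6, Psmc6, Psmd12, Psmd9 and Psme4. A CCAAT box (CCAAT) was found in 12 (33.3%, against 41.1% of all). The interferon core, chosen after the values of Psme1 and Psme2 had been seen, was found in 5 (13.9%, against 3.99% of all), in Psmb3, Psmd4, Psmd9, Psme1 and Psmg4. In the windows printed, no 2 matches overlapped.

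Per length of the principal transcript, the subunits of one ring, which are built into the particle in equal amounts, were listed at unequal RNA levels. In male KO, alpha ring levels ran from 40.1 CPM per kb for Psma2 to 224 CPM per kb for Psma7, and beta ring levels from 63.7 CPM per kb for Psmb5 to 212 CPM per kb for Psmb6. The ATPases were closer together, from 53.7 CPM per kb for Psmc6 to 131 CPM per kb for Psmc3. In female KO the same genes stood at the ends of these 3 classes, with 36.7 and 220 CPM per kb, 62.5 and 196 CPM per kb, and 55.1 and 119.9 CPM per kb. These orders depend on the length used, which was chosen after seeing the data. Per length of the union of all exons, the ends of the alpha ring in male KO were Psma1 (22.7 CPM per kb) and Psma6 (67.9 CPM per kb), and those of the beta ring Psmb1 (39.4 CPM per kb) and Psmb2 (124 CPM per kb).

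Most 26S subunits were lower in the mutant lines than in the KO line of the same sex. The mean log2 level of the 31 subunits, set relative to its mean over all 24 libraries, was highest in male KO (0.17 ± 0.047) and female KO (0.15 ± 0.014). It was 0.064 ± 0.016 in male Y217C and -0.010 ± 0.036 in male Y202C, and lay at -0.053 ± 0.024 in female Y217C, -0.077 ± 0.063 in male R172H, -0.11 ± 0.084 in female Y202C and -0.13 ± 0.062 in female R172H. In male KO the 3 libraries were at 0.21, 0.18 and 0.12, and in female KO at 0.16, 0.14 and 0.14, and no mutant library exceeded 0.083. The 3 female Y202C libraries were spread most, at -0.13, -0.023 and -0.19. The 2 KO lines together held the highest line mean for 16 of the 31 subunits, 12 of them in male KO.

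**Figure D1:**
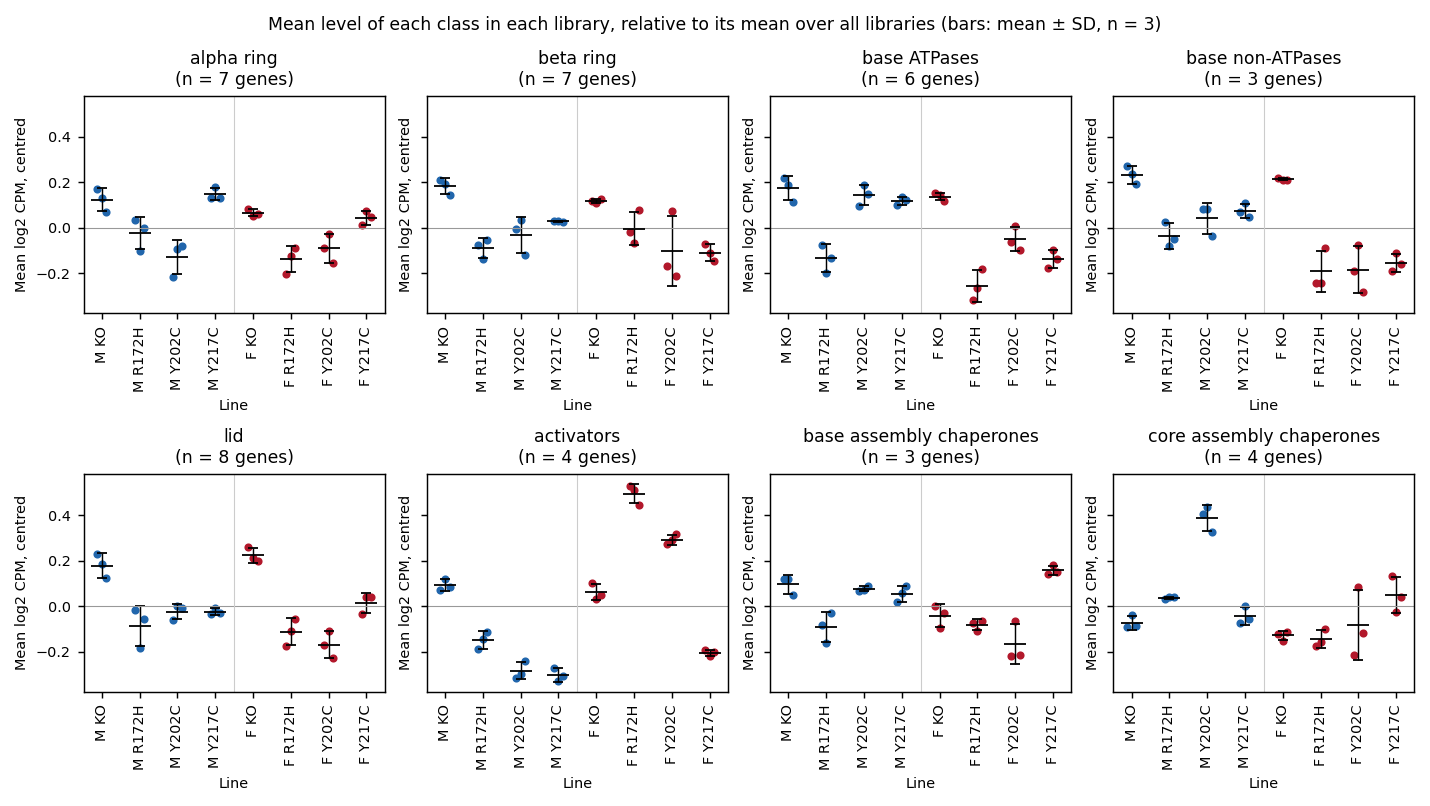
Mean log2 CPM of the genes of 8 classes in each library (vertical axis, centred on the mean of all 24 libraries), for the 4 male (M, blue) and 4 female (F, red) lines. Points are libraries and bars the mean ± SD of 3. The KO lines are above the mutant lines in the lid and the base non-ATPases, while activators peak in female R172H (0.49 ± 0.043) and core assembly chaperones in male Y202C (0.39 ± 0.057).

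In edgeR's test across all 14427 genes, at an adjusted p of 0.05, 26 of the 43 members fell and 2 rose in male R172H against male KO (60.5% and 4.65% of the members), beside 20.5% of all genes that fell and 20.2% that rose. In male Y202C, 21 fell and 12 rose (48.8% and 27.9%), beside 35.4% and 37.6% of all genes. In male Y217C, 22 fell and 9 rose (51.2% and 20.9%), beside 35.6% and 34.9%. Against female KO, 26 members fell and 7 rose in female R172H (60.5% and 16.3%), beside 35.3% and 34.4% of all genes. Female Y202C had 26 that fell and 6 that rose (60.5% and 14%), beside 34.3% and 34.3%. Female Y217C had 22 that fell and 7 that rose (51.2% and 16.3%), beside 28.7% and 28%. The share of members that fell was thus above that of all genes in each of the 6 comparisons, and the share that rose was below it. The 3 comparisons within a sex share their KO libraries and are not independent of each other.

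The median log2 fold change of the members was -0.24 in male R172H, -0.11 in male Y202C, -0.14 in male Y217C, -0.24 in female R172H, -0.25 in female Y202C and -0.16 in female Y217C, while the median of all genes stayed within 0.021 of 0. Changes were small for single genes. With a minimum of 0.5 on the log2 scale added to the adjusted p, no member passed in male R172H, and 11, 3, 11, 7 and 6 passed in male Y202C, male Y217C, female R172H, female Y202C and female Y217C. The share of all genes past that minimum is not given here, so these counts do not set the members apart from other genes.

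**Figure D2:**
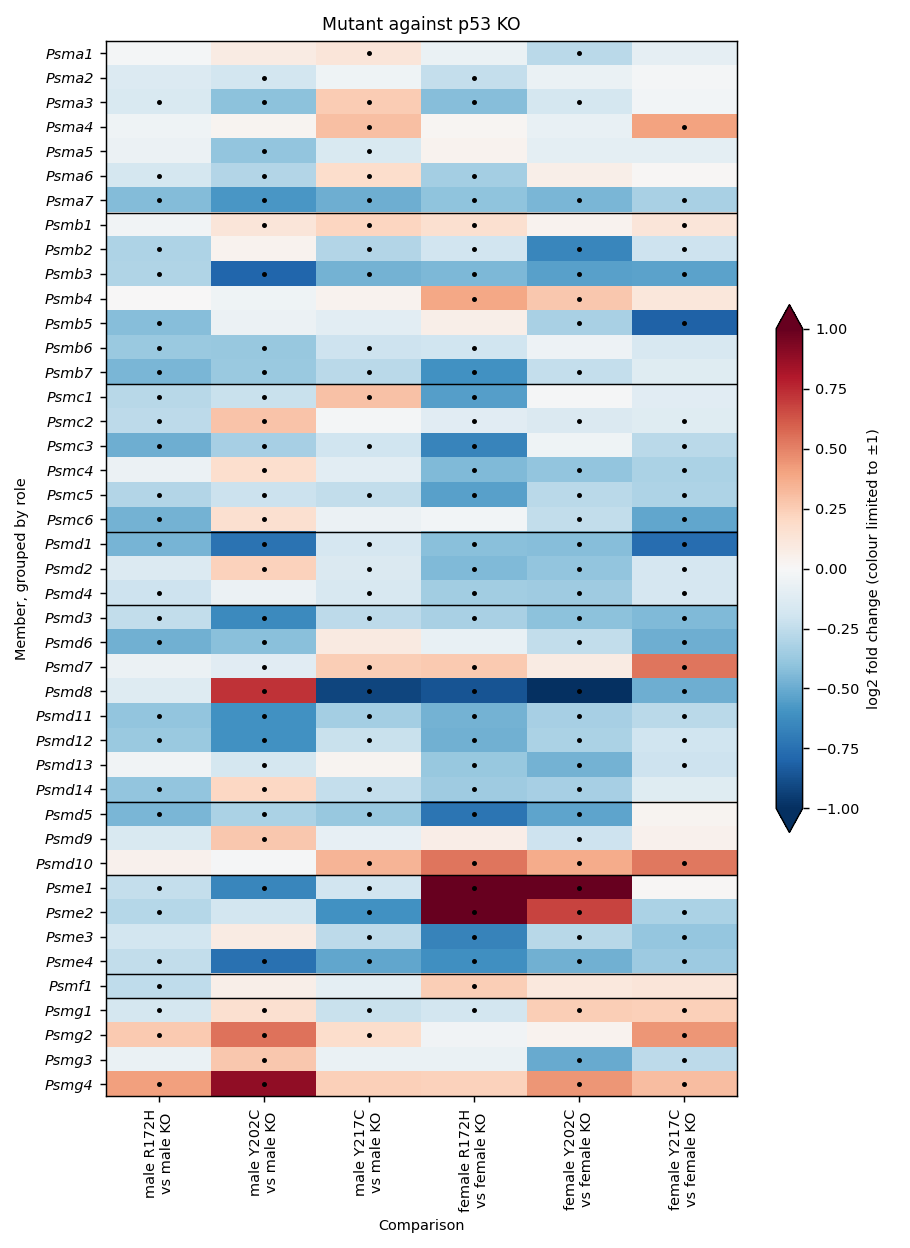
Log2 fold change of each of the 43 members (rows, grouped by role with lines between classes) in the 6 comparisons of a mutant with the KO line of its sex (columns). Blue is lower and red higher in the mutant, colours end at ±1, and a dot marks adjusted p ≤ 0.05. Blue prevails in the core, base and lid, and the strongest red is at Psme1 and Psme2 in female R172H and at Psme1 in female Y202C.

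Of the 14 core subunits, 8 fell and 0 rose in male R172H, 8 fell and 1 rose in male Y202C, and 6 fell and 5 rose in male Y217C. In the female lines 8 fell and 2 rose in R172H, 7 fell and 1 rose in Y202C, and 4 fell and 2 rose in Y217C. The share of the core that fell was 57.1%, 57.1% and 42.9% in the males and 57.1%, 50% and 28.6% in the females, beside 20.5%, 35.4% and 35.6% and 35.3%, 34.3% and 28.7% of all genes, so that in female Y217C it was at the share of all genes. The share that rose in male Y217C, 35.7%, was also near that of all genes, 34.9%. The alpha ring of male Y217C went against the general direction, with 4 of its 7 genes higher (Psma1, Psma3, Psma4 and Psma6) and 2 lower. These were 57.1% and 28.6%, beside 34.9% and 35.6% of all genes. Psma7, an alpha ring subunit, fell in all 6 comparisons. It was at 213, 206 and 196 CPM in male KO and 201, 199 and 201.9 CPM in female KO, and no mutant library was above 163 CPM. Its changes ran from -0.33 in female Y217C to -0.59 in male Y202C on the log2 scale. Psma4, another alpha ring subunit, rose in both Y217C lines. It was at 143, 149 and 134 CPM in male KO against 175, 173 and 177 CPM in male Y217C (log2 fold change 0.30 ± 0.073 (SE), adjusted p = 0.000783). In the female lines it was at 128, 122 and 119 CPM in KO against 152, 165 and 171 CPM in Y217C (log2 fold change 0.40 ± 0.073 (SE), adjusted p = 6.51e-05), again without overlap. Within the alpha ring the line means of Psma3 ranged most, by 0.74 on the log2 scale (89.96 CPM in female R172H to 149.8 CPM in male Y217C), and those of Psma1 least, by 0.27.

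In the beta ring the structural subunit Psmb3 fell in all 6 comparisons, most in male Y202C, where it was at 70.9, 68.9 and 59.8 CPM against 122, 111 and 113 CPM in male KO (log2 fold change -0.79 ± 0.096 (SE), adjusted p = 7.81e-08). Psmb2, also a structural subunit, was lowest in female Y202C, at 91.8, 100.1 and 88.9 CPM against 149, 148 and 145 CPM in female KO (log2 fold change -0.65 ± 0.057 (SE), adjusted p = 5.03e-10), while male Y202C was at 149, 165 and 147 CPM and did not pass the test against male KO (log2 fold change 0.038, adjusted p = 0.555). The line means of Psmb1 had the narrowest range of the ring, 0.27 on the log2 scale, and those of Psmb5 the widest, 0.87.

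The 3 catalytic subunits did not move as a set. Psmb5, which carries the chymotrypsin-like site, was at 56.1, 57.6 and 54.9 CPM in female KO and at 32.3, 33.1 and 30.9 CPM in female Y217C, with no overlap (log2 fold change -0.81 ± 0.076 (SE), adjusted p = 3.76e-09). In the male lines it was lower in R172H, at 42.8, 41.5 and 43.7 CPM against 56.5, 57.3 and 58.0 CPM in KO (log2 fold change -0.42 ± 0.075 (SE), adjusted p = 8.2e-05), and log2 fold changes of -0.062 in male Y202C, -0.11 in male Y217C and 0.060 in female R172H did not pass the test (adjusted p = 0.461, 0.208 and 0.483). In female Y202C it fell by 0.32 on the log2 scale, with libraries at 41.4, 53.2 and 40.2 CPM. Psmb6, which carries the caspase-like site, fell in the 3 male mutants and in female R172H, by between 0.20 and 0.38 on the log2 scale, and in male Y217C and female R172H that call was lost in 4 and 6 of 13 alternative analyses. Psmb7, which carries the trypsin-like site, was lowest in female R172H, at 89.2, 96.3 and 102 CPM against 145, 145 and 148 CPM in female KO (log2 fold change -0.61 ± 0.064 (SE), adjusted p = 1.19e-08). It fell in the other mutants as well except female Y217C (log2 fold change -0.12, adjusted p = 0.112). Psmb7 shares 405 exonic bases, 11.8% of its exon length, with Nek6 on the opposite strand, and the strand setting of the counting is not given in the sources used here.

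In the regulatory particle more genes fell than rose in each comparison. Of its 17 genes, 12 fell and 0 rose in male R172H, 14 fell and 1 rose in female R172H, 14 fell and 0 rose in female Y202C, and 14 fell and 1 rose in female Y217C. In male Y202C 10 fell and 6 rose, and in male Y217C 10 fell and 2 rose. These were between 58.8% and 82.4% of the 17, beside 20.5% to 35.6% of all genes. The median log2 fold change of the 17 was -0.28, -0.17 and -0.16 in male R172H, Y202C and Y217C and -0.42, -0.33 and -0.27 in female R172H, Y202C and Y217C. The 14 core subunits had medians of -0.17, -0.24 and -0.075 and of -0.20, -0.14 and -0.096 in the same order, lower than the regulatory particle in male Y202C and higher in the others. The difference between the particles was not tested.

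Among the ATPases of the base, Psmc3 was at 162, 146 and 152 CPM in male R172H against 217.5, 222 and 205 CPM in male KO (log2 fold change -0.49 ± 0.064 (SE), adjusted p = 1.69e-06), which was the most negative change of any member there. It was lower still in female R172H, at 116, 121 and 135 CPM against 199.9, 193 and 196 CPM in KO (log2 fold change -0.66 ± 0.064 (SE), adjusted p = 2.24e-09). Psmc3 shares 215 exonic bases, 8.25% of its exon length, with Slc39a13 on the opposite strand. In male Y202C 3 ATPases were higher (Psmc2, Psmc4 and Psmc6) and 3 lower (Psmc1, Psmc3 and Psmc5). These were 50% each, beside 37.6% of all genes that rose and 35.4% that fell. Psmc1 had the widest range of line means in the class, 0.91 on the log2 scale, from 95.7 CPM in female R172H to 179 CPM in male Y217C, and Psmc4 the narrowest, 0.46.

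Psmd1, a scaffold subunit of the base, fell in all 6 comparisons and had the widest range of its class, 0.82 on the log2 scale. It was at 217.5, 206 and 204 CPM in male KO and 202.4, 199 and 203 CPM in female KO. Male Y202C was at 124, 126 and 125 CPM (log2 fold change -0.74 ± 0.056 (SE), adjusted p = 2.07e-11) and female Y217C at 111, 125 and 119.8 CPM (log2 fold change -0.77 ± 0.056 (SE), adjusted p = 5.49e-11), both below every KO library. Psmd4, a ubiquitin receptor, had the narrowest range of the 3 base genes that are not ATPases, 0.38, and Psmd2, the other scaffold, rose in male Y202C and fell in male Y217C and the 3 female mutants.

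Psmd8, a lid subunit, varied more than any other 26S subunit, with line means from 94.8 CPM in male Y217C to 297 CPM in male Y202C. The male libraries were at 188, 183 and 167 CPM in KO, 174, 153 and 166 in R172H, 292, 299.8 and 299 in Y202C and 94.4, 91.0 and 99.0 in Y217C. The female libraries were at 244, 228 and 229 CPM in KO, 123, 127 and 135 in R172H, 109, 113 and 102 in Y202C and 165, 168 and 167 in Y217C. All mutant libraries were below KO in the females, whereas in the males Y202C was above every KO library, Y217C was below every one and R172H overlapped with them. The gene rose in male Y202C (log2 fold change 0.73 ± 0.056 (SE), adjusted p = 2.84e-11) and fell in male Y217C (log2 fold change -0.92 ± 0.056 (SE), adjusted p = 4.38e-13). In female Y202C it fell by 1.12 on the log2 scale (SE 0.056, adjusted p = 2.73e-14) and in female R172H by 0.87 (SE 0.056, adjusted p = 1.67e-12). Male R172H did not pass the test (log2 fold change -0.13, adjusted p = 0.0699).

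**Figure D3:**
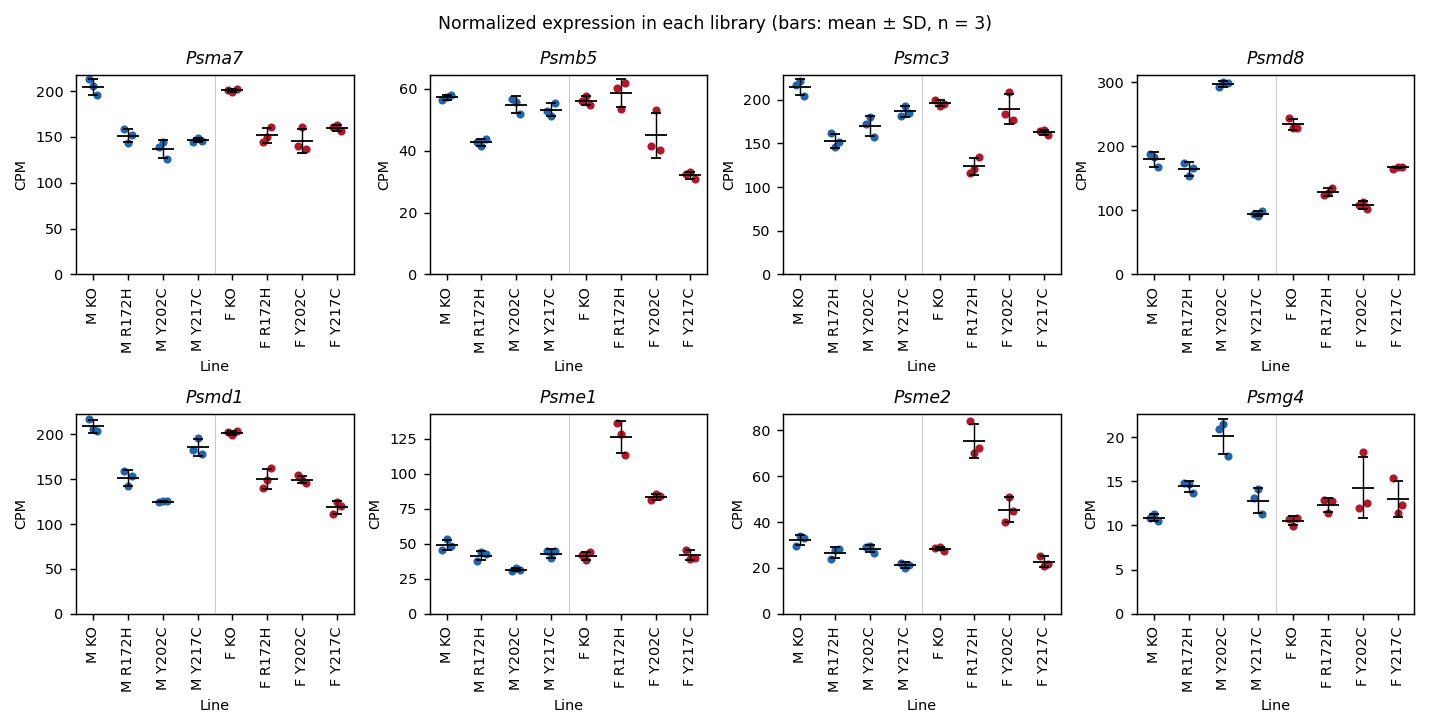
CPM of 8 members in every library (points) with the mean ± SD of 3 replicates (bars), male lines in blue (M) and female lines in red (F), each vertical axis starting at 0. Psmd8 is highest in male Y202C (297 CPM), Psme1 and Psme2 are highest in female R172H (126 and 75.4 CPM), and Psma7 and Psmd1 are highest in the KO lines.

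Among the other lid genes, Psmd14, the deubiquitinase of the particle, fell in male R172H, male Y217C, female R172H and female Y202C by between 0.24 and 0.39 on the log2 scale. In male Y202C it rose, with 113, 122 and 122 CPM against 106, 102 and 100.3 CPM in male KO (log2 fold change 0.21 ± 0.057 (SE), adjusted p = 0.00226). Psmd7, the inactive partner of Psmd14, rose in female R172H (0.26) and in both Y217C lines, most in female Y217C, at 211, 226 and 224 CPM against 154, 153 and 150.2 CPM in female KO (log2 fold change 0.53 ± 0.049 (SE), adjusted p = 2.67e-09). Psmd6 was among the lowest changes of male R172H, at 56.3, 50.8 and 58.1 CPM against 80.4, 76.6 and 73.4 CPM in male KO (log2 fold change -0.48 ± 0.055 (SE), adjusted p = 2.86e-07). It lies on chromosome 14, whose other 491 genes had a median log2 fold change of -0.32 in that comparison. Psmd3, Psmd11 and Psmd12 fell in all 6 comparisons. Psmd13 had the narrowest range of the lid, 0.47 on the log2 scale. It shares 342 exonic bases, 10.1% of its exon length, with Sirt3 on the opposite strand.

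The chaperones of base assembly went in opposite directions. Psmd5 fell in 5 comparisons and most in female R172H, at 39.3, 39.2 and 38.6 CPM against 64.8, 65.8 and 63.3 CPM in female KO (log2 fold change -0.73 ± 0.051 (SE), adjusted p = 9.12e-12), and its line means had the widest range of the class, 0.79 on the log2 scale. Psmd10, also known as gankyrin and described to promote degradation of p53 through Mdm2, had the narrowest range, 0.54, and rose in 4 comparisons. It was at 14.4, 12.7 and 13.7 CPM in female KO against 19.9, 19.4 and 19.5 CPM in female Y217C (log2 fold change 0.52 ± 0.071 (SE), adjusted p = 1.28e-06), and at 14.8, 15.4 and 14.5 CPM in male KO against 18.3, 18.2 and 20.0 CPM in male Y217C (log2 fold change 0.34 ± 0.071 (SE), adjusted p = 0.000184). In female R172H it rose by 0.54 and in female Y202C by 0.37 on the log2 scale, and in male R172H and male Y202C the changes of 0.045 and -0.0094 did not pass the test. Psmd9 rose in male Y202C and fell in female Y202C.

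The largest increases of any member were in the PA28 activator. Psme1, which encodes its alpha subunit, was at 42.1, 38.3 and 43.8 CPM in female KO, 136, 128 and 113 in female R172H, 81.2, 85.2 and 84.0 in female Y202C and 45.8, 39.4 and 40.1 in female Y217C. The male libraries were at 45.8, 53.02 and 48.2 CPM in KO, 37.7, 44.2 and 42.6 in R172H, 30.3, 32.4 and 31.2 in Y202C and 44.8, 39.5 and 44.4 in Y217C. Female R172H and female Y202C stood above every other library. Against female KO the gene rose 3.04-fold in R172H (log2 fold change 1.60 ± 0.078 (SE), adjusted p = 6.64e-15) and 2.02-fold in Y202C (log2 fold change 1.01 ± 0.077 (SE), adjusted p = 4.73e-11), with no change past the test in Y217C (log2 fold change 0.013, adjusted p = 0.9). In the male lines it fell in Y202C (log2 fold change -0.65 ± 0.077 (SE), adjusted p = 6.57e-08). Its calls in male R172H (-0.24) and male Y217C (-0.19) were lost in 2 and 3 of 13 alternatives.

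Psme2, which encodes the beta subunit and lies close to Psme1 on chromosome 14 (GRCm38, 55578123 to 55581529 for Psme1 and 55587441 to 55591113 for Psme2), followed it over the 8 lines, with a correlation of line means of 0.91 on the log2 scale (8 points that share their libraries, given as a description). Female libraries were at 28.5, 28.9 and 27.5 CPM in KO, 84.0, 70.1 and 72.2 in R172H, 40.0, 50.8 and 45.0 in Y202C and 25.4, 20.8 and 21.9 in Y217C, and male KO at 29.6, 33.8 and 33.2 CPM. The gene rose in female R172H (log2 fold change 1.41 ± 0.090 (SE), adjusted p = 1.37e-12) and in female Y202C (log2 fold change 0.68 ± 0.090 (SE), adjusted p = 5.06e-07), and fell in male Y217C, at 22.3, 19.9 and 21.4 CPM (log2 fold change -0.61 ± 0.091 (SE), adjusted p = 2.63e-06). Psme2 was also called lower in male R172H and in female Y217C. A near-identical copy of Psme2 on another chromosome, Psme2b, had its own counts (line means from 3.87 to 12.2 CPM). Per the study's methods only uniquely aligned, unambiguous reads were counted, so reads that fit both copies equally would count for neither. Psme1 shares 14 exonic bases with Emc9.

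The other activators, Psme3 and Psme4, went the opposite way to Psme1 and Psme2 in female R172H and female Y202C. In female Y217C they fell together with Psme2. Psme3, which encodes nuclear PA28 gamma, was at 84.3, 98.1 and 91.5 CPM in female R172H against 155, 138 and 141 CPM in female KO (log2 fold change -0.67 ± 0.076 (SE), adjusted p = 3.94e-08). It also fell in female Y202C (-0.28), female Y217C (-0.39) and male Y217C (-0.26). Psme4, which encodes PA200, fell in all 6 comparisons. It was lowest in male Y202C, at 92.3, 84.5 and 99.98 CPM against 159.8, 149 and 156 CPM in male KO (log2 fold change -0.75 ± 0.061 (SE), adjusted p = 8.93e-11). Psmf1, which encodes the core-binding protein PI31, had line means between 24.5 and 32.3 CPM. It fell in male R172H (-0.25, adjusted p = 0.000733) and rose in female R172H (0.25, adjusted p = 0.000287). It was lower in male than in female R172H (log2 difference -0.40). Its sex by mutation interaction passed with R172H (-0.50) and with Y217C (-0.22).

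The immunoproteasome subunits, which are not members, moved with Psme1 and Psme2 in female R172H. Psmb8 was at 24.3, 18.6 and 16.2 CPM there against 2.11, 2.11 and 2.09 CPM in female KO (log2 fold change 3.23 ± 0.21 (SE), adjusted p = 1.65e-12), Psmb9 at 6.14, 4.01 and 3.99 against 0.275, 0.448 and 0.425 CPM (log2 fold change 3.62 ± 0.29 (SE), adjusted p = 9.75e-11), and Psmb10 at 47.4, 41.4 and 40.1 against 13.9, 13.6 and 14.3 CPM (log2 fold change 1.63 ± 0.094 (SE), adjusted p = 1.91e-13). In female Y202C, Psmb9 (1.72) and Psmb10 (0.83) rose and Psmb8 did not pass the test (-0.24, adjusted p = 0.328). In female Y217C, Psmb8 (0.72) and Psmb10 (0.48) rose while the value of -0.38 for Psmb9 missed the threshold (adjusted p = 0.349). Psmb8 fell in male R172H (log2 fold change -2.92), male Y202C (-2.89) and male Y217C (-5.04), with the Y217C libraries at 3 to 12 counts. Psmb9 fell in the 3 male mutants too, from 0.304 CPM in KO, and Psmb10 fell in male Y202C (-0.88). Female R172H also held the highest summed level of the 5 fibroblast and pericyte markers (median 27711 CPM, against 15386 CPM in female KO) and of the 11 astrocyte markers (805 against 421 CPM). The astrocyte list did not move as a whole. Slc1a3 (281 against 18.7 CPM), Nfia (125 against 28.3 CPM) and Sox9 (183 against 113 CPM) were higher in female R172H. Aldh1l1 (14.9 against 0.204 CPM) and Aldoc (4.22 against 1.63 CPM) were higher too. Gja1 (157 against 221 CPM), Glul (31.6 against 43.8 CPM) and Gfap (0.0482 against 0.124 CPM) were lower. Slc1a2 (0.235 against 0.301 CPM), S100b (0.193 against 0.210 CPM) and Aqp4 (0.00711 against 0 CPM) were low in both lines. In the other list, Col1a1, Col3a1, Dcn and Lum had their highest line mean in female R172H. The part of these markers in the change of Psme1 and Psme2 was not tested.

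Of the 4 chaperones that assemble the core, 4 rose in male Y202C (100%, median log2 fold change 0.41), beside 37.6% of all genes. In male R172H and Y217C the share that rose was 50% and 25%, beside 20.2% and 34.9%. In female R172H, Y202C and Y217C it was 0%, 50% and 75%, beside 34.4%, 34.3% and 28%. The share that fell was 0% in male Y202C and 25% in each other comparison with KO, beside 20.5% to 35.6% of all genes. Psmg4 was at 20.9, 21.5 and 17.9 CPM against 10.9, 11.2 and 10.5 CPM in male KO (log2 fold change 0.89 ± 0.12 (SE), adjusted p = 8.33e-07), the largest increase of any member there, and Psmg2 at 26.1, 23.5 and 28.7 against 17.6, 17.3 and 18.9 CPM (log2 fold change 0.54 ± 0.072 (SE), adjusted p = 3.26e-07). The increases of Psmg1 (0.16) and Psmg3 (0.27) lost their call in 3 and 6 of 13 alternatives. Psmg2 and Psmg4 were also the 2 members that rose in male R172H, Psmg2 with 20.3, 21.3 and 22.9 CPM (log2 fold change 0.26 ± 0.072 (SE), adjusted p = 0.00509) and Psmg4 with 14.8, 14.7 and 13.7 CPM (log2 fold change 0.41 ± 0.12 (SE), adjusted p = 0.0114). In female Y217C Psmg1, Psmg2 and Psmg4 rose and Psmg3 fell, and the calls of Psmg3 and Psmg4 were lost in 6 and 4 of 13 alternatives. In female Y202C Psmg1 (0.25) and Psmg4 (0.44) rose and Psmg3 fell (-0.51), and the Psmg4 libraries there were spread, at 12.02, 18.3 and 12.6 CPM, and its call was lost without replicate 2. Psmg4 had the widest range of line means in the class (0.93 on the log2 scale) and Psmg1 the narrowest (0.52).

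The members were also compared between the male and female line of each genotype. In male KO against female KO, 6 of 43 were higher and 5 lower (14% and 11.6%), beside 17.2% and 13.8% of all genes. Without male KO replicate 2 there were 4 in all, and without female KO replicate 2 there were 6, whereas limma called 19 and a fit of only the KO lines 17. Both shares were below those of all genes, and all genes were called less often here than between the mutant lines too. Psmd8 was lower in male KO (log2 difference -0.38 ± 0.055 (SE), adjusted p = 8.01e-06) and Psmd7 higher (log2 difference 0.32 ± 0.049 (SE), adjusted p = 1.75e-05). Psmd13 was lower (log2 difference -0.19 ± 0.057 (SE), adjusted p = 0.014) and Psme1 higher (log2 difference 0.24 ± 0.077 (SE), adjusted p = 0.0169), and each of these 2 calls was lost without some single KO library. For Psmd13 the log2 difference was -0.17 without male KO replicate 2 and -0.16 without replicate 3, and for Psme1 it was 0.18 without male and 0.19 without female KO replicate 2.

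In the R172H lines, 17 members were higher and 10 lower in males (39.5% and 23.3%), beside 32.4% and 29.7% of all genes. Psme1 and Psme2 were lowest (log2 difference -1.60 ± 0.078 (SE), adjusted p = 8.18e-15 for Psme1 and log2 difference -1.51 ± 0.091 (SE), adjusted p = 5.28e-13 for Psme2), and Psmd8 (0.35) and Psme3 (0.35) were highest. In the Y202C lines, 19 were higher and 16 lower (44.2% and 37.2%), beside 37.7% and 37.7%. Psmd8 was highest (log2 difference 1.46 ± 0.057 (SE), adjusted p = 5.13e-17) with Psmg3 next (log2 difference 0.88 ± 0.11 (SE), adjusted p = 1.71e-07), and Psme1 (-1.42) and Psme2 (-0.67) were lowest. In the Y217C lines, 12 were higher and 5 lower (27.9% and 11.6%), beside 33.4% and 34.6%. Psmb5 (log2 difference 0.73 ± 0.076 (SE), adjusted p = 8.47e-09) and Psmd1 (log2 difference 0.65 ± 0.056 (SE), adjusted p = 2.97e-10) were highest and Psmd8 (log2 difference -0.81 ± 0.056 (SE), adjusted p = 4.41e-12) and Psmg2 (log2 difference -0.36 ± 0.072 (SE), adjusted p = 0.000105) lowest. Among the 31 26S subunits, 11 were higher in male than in female Y217C (35.5%) and 1, Psmd8, was lower (3.23%). The share that was higher was near the 33.4% of all genes, and the share that was lower was below their 34.6%.

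Whether a mutation changed a member differently in the 2 sexes was tested directly as an interaction, the male change minus the female change. It passed for 22 of 43 members (51.2%) with R172H, beside 58% of all genes, for 33 (76.7%) with Y202C, beside 68%, and for 15 (34.9%) with Y217C, beside 54.8%. These shares lay below, above and below those of all genes. Psme1 had the most negative value with R172H (log2 difference -1.85 ± 0.11 (SE), adjusted p = 5.99e-13) and with Y202C (log2 difference -1.66 ± 0.11 (SE), adjusted p = 2.36e-12), and Psmd8 the most positive with R172H (log2 difference 0.74 ± 0.079 (SE), adjusted p = 2.43e-08) and Y202C (log2 difference 1.84 ± 0.079 (SE), adjusted p = 8.09e-16). With Y217C, Psmb5 was highest (log2 difference 0.70 ± 0.11 (SE), adjusted p = 5.02e-06) and Psmg1 lowest (log2 difference -0.46 ± 0.072 (SE), adjusted p = 7.59e-06). Psmg1 fell in male Y217C, from 30.6, 31.0 and 29.0 CPM in KO to 25.3, 25.2 and 27.3 CPM, and rose in female Y217C, from 27.0, 27.4 and 26.1 to 31.6, 31.1 and 32.2 CPM. Among the 4 activators with Y217C none passed at an adjusted p of 0.05 (values from -0.29 to 0.13). The sex comparisons and the interactions use the same libraries as the comparisons with KO.

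**Figure D4:**
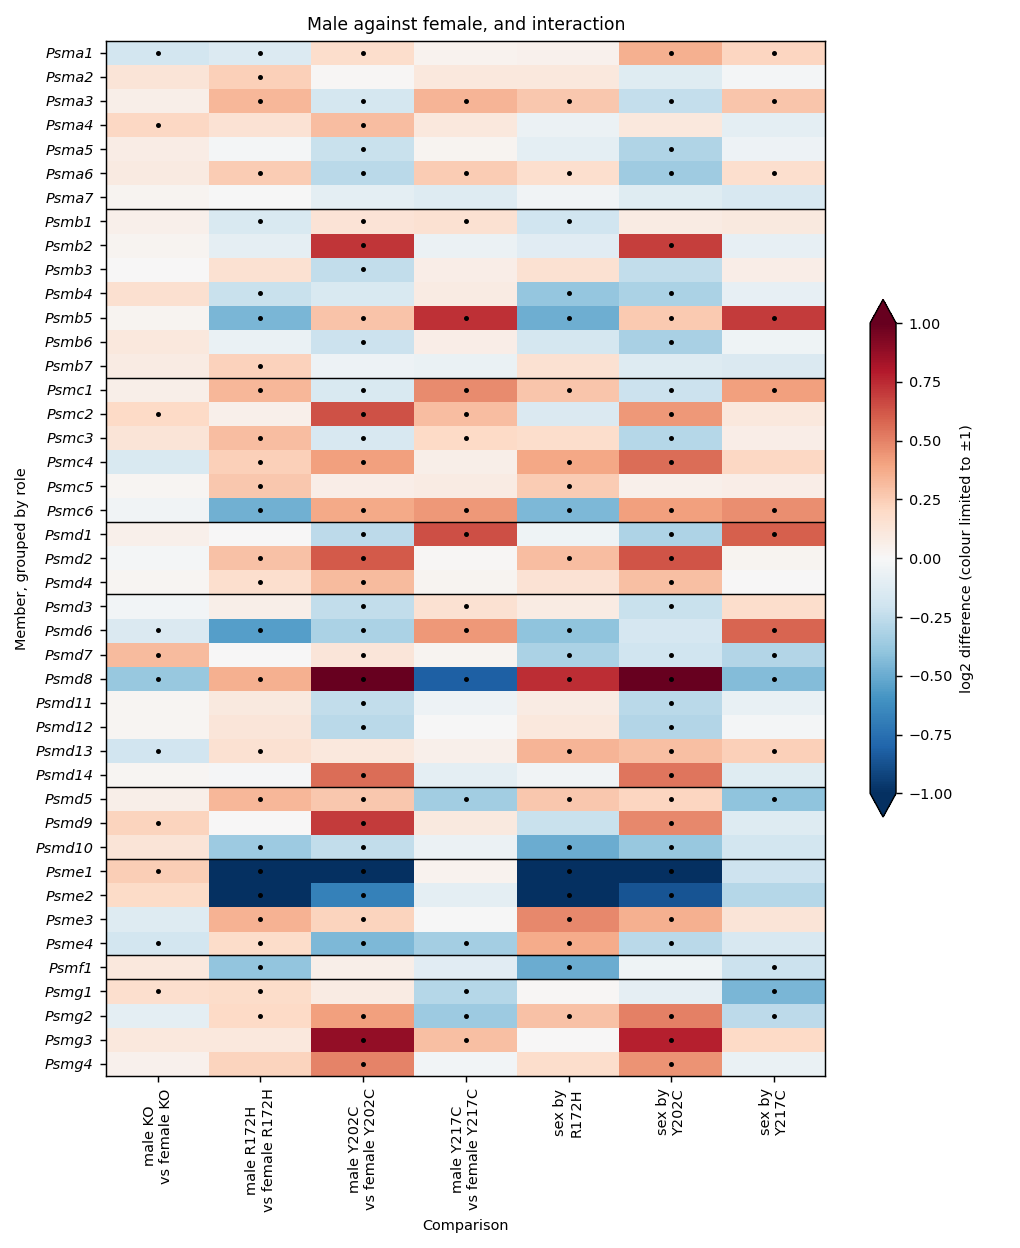
Log2 difference of each of the 43 members (rows, grouped by role) between the male and female line of 4 genotypes and in the 3 interaction tests of sex by mutation (columns). Red is higher in males, or a male change above the female one, colours end at ±1, and a dot marks adjusted p ≤ 0.05. The KO column is palest, with 11 members called, and Psme1, Psme2 and Psmd8 have the deepest colours.

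Members were also set beside the other genes of their chromosomes. The 43 members lie on 16 chromosomes, with 8 on chromosome 11, 6 on chromosome 2 and 5 on chromosome 14. Of the 8 on chromosome 11, 7, 7 and 8 were lower in male R172H, Y202C and Y217C, and 8, 7 and 7 in female R172H, Y202C and Y217C. The other 1151 genes of that chromosome had median log2 fold changes of -0.11, -0.26 and -0.14 in the males and -0.097, 0.041 and -0.075 in the females. Of those genes, 32.3%, 53.8% and 45.4% were called lower in the males and 41.1%, 28.5% and 34.2% in the females. Each member was therefore also set beside the median of the tested genes within 2.5 Mb on either side, of which there were 11 to 113. Across the 43 members, the correlation of a member's change with that of its neighbours was 0.74, 0.46 and 0.47 in male R172H, Y202C and Y217C and 0.64, 0.20 and 0.71 in the females (a description over 43 genes that share libraries and, for close pairs, neighbours). The difference of a member from its neighbours had medians of -0.15, -0.10 and -0.063 in the males and -0.18, -0.27 and -0.11 in the females. Members below their neighbours numbered 38, 24 and 26 of 43 in the males and 32, 32 and 28 in the females. No test was made of this difference.

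The genes with the largest changes differed in this respect. For Psmb5 in female Y217C (-0.81) the 72 neighbouring genes had a median of -0.59, and the other 491 genes of chromosome 14 one of -0.47. In male R172H all 5 members on chromosome 14 were lower, Psmb5 and Psmd6 among them. The other 491 genes there had a median of -0.32, and 62.9% of them were called lower. For Psmd8 the 113 neighbours had medians of 0.029 in female Y202C and 0.15 in male Y202C, against -1.12 and 0.73 for the gene. For Psme1 and Psme2 the 78 neighbours had a median of 0.31 in female R172H and of -0.015 in female Y202C. In female Y217C, where those neighbours stood at -0.60, Psme1 was at 0.013 and Psme2 at -0.32. Psmg4 in male Y202C (0.89) had 27 neighbours with a median of 0.065. The part of copy number or of other regional differences in these values was not tested.

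**Figure D5:**
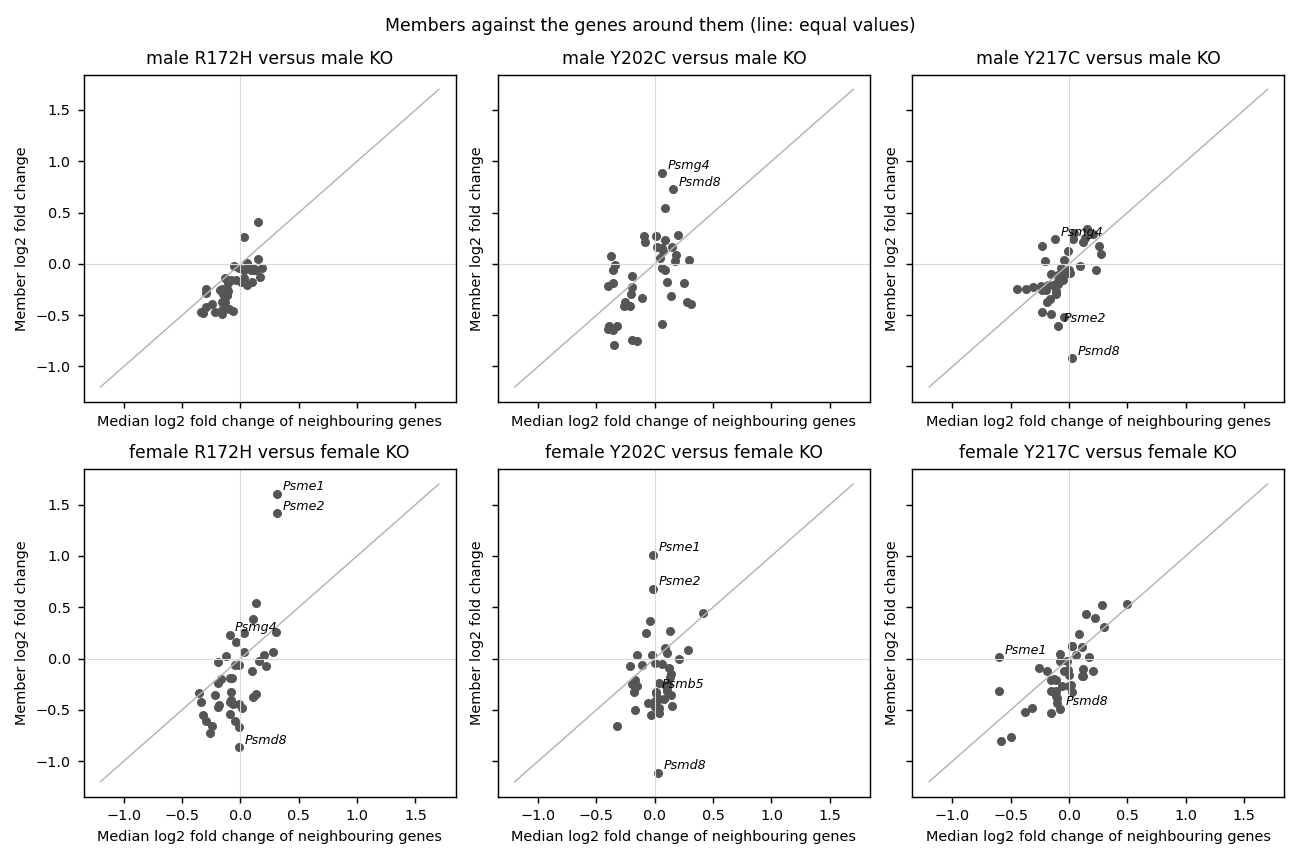
Log2 fold change of each of the 43 members (vertical axis) against the median log2 fold change of the tested genes within 2.5 Mb on either side (horizontal axis), in the 6 comparisons of a mutant with KO. The grey line marks equal values. Of the 43 points, 38, 24 and 26 lie below the line in male R172H, Y202C and Y217C and 32, 32 and 28 in the females, and in female R172H and female Y202C Psme1 and Psme2 lie farthest above it.

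Over the 8 lines the median range of the members was below that of all genes, which were not matched to them for level. The range of line means had a median of 0.63 on the log2 scale for the 43 members and 0.61 for the 31 subunits, beside 1.02 for all genes with a count in every line. It was 0.62 for the 8 subunits of the chaperonin CCT, another large complex, and 0.61 for 16 partners of the proteasome. The line means of 26S subunits partly moved together. The correlation of a subunit with the mean of the other 30 had a median of 0.59 over the 8 lines and was above 0.5 for 19 of 31, and was highest for Psmc5 (0.88) and Psmd4 (0.87). Psmb4, a structural beta ring subunit, was at -0.66. It rose in female R172H, from 106, 104 and 109 CPM in KO to 150.4, 133 and 134 CPM (log2 fold change 0.39 ± 0.075 (SE), adjusted p = 6.55e-05), and in female Y202C (0.27). These 8 points share library preparation and scaling, and the values are descriptions.

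Genes that work with the proteasome were listed separately. Of the 16 partners (ubiquitin receptors, deubiquitinases and assembly factors), 4 fell and 2 rose in male R172H, 4 fell and 7 rose in male Y202C, 6 fell and 4 rose in male Y217C, 9 fell and 4 rose in female R172H, 11 fell and 2 rose in female Y202C, and 6 fell and 3 rose in female Y217C. The share that fell was 25%, 25% and 37.5% in male R172H, Y202C and Y217C and 56.2%, 68.8% and 37.5% in the females, beside 20.5%, 35.4% and 35.6% and 35.3%, 34.3% and 28.7% of all genes. It was near or below that share in the males and above it in the females. The share that rose was 12.5%, 43.8% and 25% in the males, beside 20.2%, 37.6% and 34.9% of all genes. In the females it was 25%, 12.5% and 18.8%, beside 34.4%, 34.3% and 28%. Adrm1, a ubiquitin receptor of the base, fell in all 6, by between 0.23 and 0.53 on the log2 scale. The partners with the largest differences were Akirin2, which directs nuclear import of proteasomes, and Zfand5, a proteasome-binding zinc finger protein, both higher in male than in female Y202C. Akirin2 was at 138, 145 and 147 against 48.9, 52.8 and 48.0 CPM (log2 difference 1.52 ± 0.051 (SE), adjusted p = 2.45e-18), and Zfand5 at 129, 132 and 155 against 63.4, 55.9 and 59.5 CPM (log2 difference 1.22 ± 0.066 (SE), adjusted p = 2.91e-14).

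Of 7 genes around NFE2L1, the transcription factor that raises proteasome genes when the proteasome is impaired, 3, 4 and 3 rose and 3, 2 and 3 fell in male R172H, Y202C and Y217C, and 4, 3 and 3 rose and 2, 2 and 3 fell in the females. The shares that rose (42.9% to 57.1%) and fell (28.6% to 42.9%) stood beside 20.2% to 37.6% and 20.5% to 35.6% of all genes. Nfe2l1 itself rose in male Y202C (log2 fold change 0.39 ± 0.054 (SE), adjusted p = 8.72e-07) and, by 0.15, 0.22 and 0.14 on the log2 scale, in male R172H, female R172H and female Y217C. The largest differences were in Ngly1, the deglycosylase that processes NFE2L1, and in Nfe2l2. Ngly1 was lower in male than in female R172H, at 8.79, 9.44 and 10.0 against 22.5, 22.3 and 20.6 CPM (log2 difference -1.21 ± 0.085 (SE), adjusted p = 1.01e-11). Nfe2l2, which encodes NRF2, was higher in male than in female Y202C, at 209, 225 and 257 against 107, 99.3 and 105 CPM (log2 difference 1.15 ± 0.066 (SE), adjusted p = 8.91e-14).

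Of 6 genes for ubiquitin and its activating enzymes, 0, 1 and 1 rose and 0, 3 and 3 fell in the male mutants in the same order, and 0, 1 and 0 rose and 3, 4 and 5 fell in the females. The share that fell was 0%, 50% and 50% in the males and 50%, 66.7% and 83.3% in the females, beside the same 20.5% to 35.6% of all genes. Uba6, an activating enzyme, fell in male Y217C, to 25.9, 26.8 and 27.3 CPM from 55.5, 52.9 and 53.7 CPM (log2 fold change -1.02 ± 0.093 (SE), adjusted p = 7.82e-10). Of the 8 CCT genes, 3, 5 and 7 fell in the male mutants, where 0, 2 and 0 rose, and 8, 8 and 5 fell in the females, where 0 rose. The share that fell was 37.5%, 62.5% and 87.5% in the males and 100%, 100% and 62.5% in the females, above that of all genes in each comparison. Cct6a and Tcp1 changed most, both in female Y202C, Cct6a with 206, 191 and 203 CPM against 313, 309 and 299 CPM in KO (log2 fold change -0.62 ± 0.065 (SE), adjusted p = 1.26e-08) and Tcp1 with 285, 285 and 278 against 443, 426 and 427 CPM (log2 fold change -0.61 ± 0.043 (SE), adjusted p = 1.08e-11).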

How the data were processed

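Poly(A) RNA of the 24 libraries was sequenced, and read counts per gene were deposited by the authors as raw, unnormalized counts, without replicates being pooled. Per the labels (the submitters' processing notes), the tools were STAR 2.5.1a, Subread and featureCounts. Every one of the 14427 genes listed exceeded 1 CPM in at least 2 libraries. Per the study's methods the reference was an Ensembl primary assembly, and the strand setting of the counting is not given in the sources used here. Gene names and coordinates were taken from GENCODE M21, on GRCm38, and match the table by gene identifier.

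All genes were fitted together in edgeR 4.0.16 (R 4.3.3) with TMM factors, 1 mean per line and a quasi-likelihood F test, adjusted by Benjamini-Hochberg over all genes tested, and a gene was called at an adjusted p of 0.05 or less. Standard errors were the size of the log2 fold change divided by the square root of F. Sex by mutation interactions were contrasts of the same fit. The code was tested on simulated data. CPM values used TMM-scaled library sizes. The levels per length used principal transcripts, and the promoter motifs searched and the comparison with neighbouring genes were partly chosen after seeing the data.

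Values are given for Trp53, the catalytic subunits, Psmd14, the activators and Psmf1, for the 2 highest and 2 lowest members called in each comparison (1 each in interactions), for the widest and narrowest range in each class, for the immunoproteasome, and for the 2 most changed genes of each other list over the 10 comparisons. A gene that this rule names is not reported here. Psma7, Psmb4, Psmc5, Psmd4, Adrm1 and Nfe2l1 were named after their values were seen. The members and lists were chosen with earlier results of these data known. DESeq2 1.42.0 and limma 3.58.1 served as alternatives, and 13 alternatives were run for each comparison of lines and 19 for each interaction, beside the stricter thresholds. Replicates differed beyond counting noise in all 24 pairs within lines, and none was treated as a duplicate.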

Additional observations from a re-analysis of the deposited data

Results flagged for a closer look

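The results below were singled out because the difference of a mutant line from KO was not the same in males and females in a direct test, edgeR's quasi-likelihood test of the interaction with Benjamini-Hochberg adjustment over all genes. The interaction passed for 22 of 43 members with R172H, 33 with Y202C and 15 with Y217C, beside 58%, 68% and 54.8% of all genes. The values that follow are the male log2 change minus the female one. For Psme1 this was -1.85 with R172H and -1.66 with Y202C, where the gene rose in the females and fell in the males. For Psmd8 it was 0.74 with R172H and 1.84 with Y202C, where the gene fell in the females, rose in male Y202C and did not pass the test in male R172H. With Y217C it was -0.46 for Psmg1, which fell in the male and rose in the female line, and 0.70 for Psmb5, which fell in the female line and did not pass the test in the male one. In each of these the male and female line come from 1 culture each. Psme1 and Psmb5 lie on chromosome 14. Its other genes had median male to female log2 differences of -0.56 in R172H, -0.27 in Y202C and 0.37 in Y217C. The part of this regional difference was not tested.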

How the results depend on the processing

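Of 559 pairs of a member and a comparison, 346 were called, 277 of them under every alternative other than the stricter thresholds, and none of the 346 changed direction, whereas 62 of the 213 pairs not called gained a call somewhere. Alternatives were DESeq2 size factors, DESeq2, limma with voom and quality weights, a stricter filter (over 5 CPM in 3 libraries), no filter, a fit of only the lines compared, a replicate block, stricter thresholds and leaving out each replicate in turn. With a log2 minimum of 0.5, the members called were 0, 11 and 3 in male R172H, Y202C and Y217C against KO, 11, 7 and 6 in the females, 0, 3, 9 and 3 between the sexes in KO, R172H, Y202C and Y217C, and 3, 9 and 3 in the R172H, Y202C and Y217C interactions, by construction fewer. These counts are given without the share of all genes at that minimum. Beyond that, the count of members called moved by over 1.5 times only between male and female KO, with 11 called in the report, 19 by limma, 17 with only the KO lines fitted, 4 at an adjusted p of 0.01 and 4 to 10 with 1 replicate left out (4 without male KO replicate 2, 6 without female KO replicate 2). The cause was not tested.

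The stricter filter moved the members' median in male Y202C from -0.11 to -0.16 and the male to female Y217C median from 0.039 to 0.070, and fitting only those lines moved the latter to 0.059. With 1 replicate left out, the medians against KO lay between -0.24 and -0.19, -0.15 and -0.091, and -0.16 and -0.12 in male R172H, Y202C and Y217C, and between -0.27 and -0.21, -0.26 and -0.19, and -0.16 and -0.13 in the females. The male to female medians were less steady, at 0.031 to 0.070 in KO, 0.068 to 0.16 in R172H, 0.012 to 0.092 in Y202C (0.068 with all replicates, 0.012 without female Y202C replicate 3) and 0.034 to 0.055 in Y217C. The median of all genes moved most with 1 replicate left out, by up to 0.0344. The largest shift was 0.0230 with DESeq2 size factors, 0.0266 with only the lines compared and 0.0326 with the stricter filter.

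Replicate numbers did not pair the samples. In 0 of 10 comparisons was every same-numbered pair correlated above 0.1, with mean correlations from -0.18 to 0.14. With a replicate block, 27, 33 and 30 members were called in male R172H, Y202C and Y217C, 33, 32 and 28 in the females and 10 between the KO lines.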
